A study of Mus musculus with 7 samples.

Results

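Ccn1, Ccn2, Ankrd1, Amotl2 and Axl are 5 genes known as transcriptional targets of YAP, and they were followed on 7 short-oligonucleotide arrays of mouse fetal liver cells. The genes were listed by symbol, and all probe sets annotated to 1 of these symbols alone were taken, which gave 8 of 22690 probe sets and 5 of 12393 measured genes. The genes were chosen by their signals in the contrast of the feeder array with the other arrays, with earlier results in view, so that contrast is described and not tested. The groups were feeder cells, a layer from fetal liver on which other cells are kept (n = 1), unsorted liver endothelial progenitors (n = 1), and 2 sorted fractions of progenitors, which carry the surface antigen Sca1 (written Sca1+, n = 2) or lack it (written Sca1-, n = 3). Fetal liver was the source and total RNA the material of all groups; strain, gestational age, culture time, how the Sca1 fractions were separated, and whether cells were pooled are not stated in the labels used here. The titles of 3 sorted arrays name sample 2 or 3 (Sca1+ replicate 2, Sca1- replicates 2 and 3), and these are called the second set; Sca1+ replicate 1 and Sca1- replicate 1 are called the first set. Signals were brought to a common trimmed mean of 500, and each difference is one of log2 signal after a floor of 64.

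YAP and its relative TAZ are coactivators that shuttle between cytoplasm and nucleus. The Hippo kinases keep them phosphorylated and cytoplasmic, whereas spreading on a stiff surface, low cell density and actin tension favour their entry into the nucleus, where they bind DNA through TEAD factors. Ccn1 and Ccn2, long called Cyr61 and Ctgf, encode secreted matricellular proteins that bind integrins, and Ccn2 is a classical product of fibroblasts and of activated hepatic stellate cells. Ankrd1 encodes an ankyrin repeat protein of the nucleus and sarcomere that is induced by mechanical load, Amotl2 encodes an angiomotin family protein that binds YAP and limits it, and Axl encodes a receptor tyrosine kinase whose ligand is Gas6.

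TEAD factors recognise a core of the letters GGAATG, read on either strand, and the promoter windows of the members are shown because TEAD factors are the DNA-binding partners of YAP. RefSeq promoter windows (build GRCm38.p6, 250 bases before to 50 after an annotated start) were matched by symbol for 4 of the 5 genes, and each is printed on its gene's strand with the GGAATG or CATTCC core in capitals.
Ccn1 promoter: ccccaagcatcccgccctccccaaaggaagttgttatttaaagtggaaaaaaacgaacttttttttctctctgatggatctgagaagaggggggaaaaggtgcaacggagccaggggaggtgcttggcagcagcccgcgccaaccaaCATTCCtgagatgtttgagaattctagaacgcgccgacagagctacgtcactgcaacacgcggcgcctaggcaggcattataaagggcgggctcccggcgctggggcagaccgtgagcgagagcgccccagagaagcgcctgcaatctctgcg
Ankrd1 promoter: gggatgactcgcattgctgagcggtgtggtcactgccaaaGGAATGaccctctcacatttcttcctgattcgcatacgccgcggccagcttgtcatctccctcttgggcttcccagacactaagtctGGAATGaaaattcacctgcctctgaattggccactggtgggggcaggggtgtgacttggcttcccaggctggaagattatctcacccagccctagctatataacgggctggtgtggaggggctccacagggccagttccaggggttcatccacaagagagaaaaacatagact
Amotl2 promoter: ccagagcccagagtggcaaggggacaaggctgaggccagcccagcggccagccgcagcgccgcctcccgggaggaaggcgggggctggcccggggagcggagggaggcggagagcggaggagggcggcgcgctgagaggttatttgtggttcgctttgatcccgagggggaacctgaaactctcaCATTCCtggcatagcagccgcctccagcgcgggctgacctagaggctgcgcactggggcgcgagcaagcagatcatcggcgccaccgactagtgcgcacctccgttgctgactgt
Axl promoter: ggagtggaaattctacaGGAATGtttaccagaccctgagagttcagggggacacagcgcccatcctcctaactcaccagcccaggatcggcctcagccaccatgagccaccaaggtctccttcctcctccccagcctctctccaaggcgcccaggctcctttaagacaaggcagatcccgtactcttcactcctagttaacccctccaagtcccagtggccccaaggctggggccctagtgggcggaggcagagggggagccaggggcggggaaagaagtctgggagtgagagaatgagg
The Ccn1 window is chr3:145649936-145650235 on the minus strand, and its core lies at -103 to -98 from the start in the reverse orientation. The Ankrd1 window, chr19:36119795-36120094 on the minus strand, holds 2 forward cores at -210 to -205 and -123 to -118. The Amotl2 window, chr9:102717554-102717853 on the plus strand, holds a reverse core at -65 to -60, and the Axl window, chr7:25788684-25788983 on the minus strand, a forward core at -233 to -228. All 4 windows therefore hold the core, against 14.7% of all 32851 windows of the same length, and at least 2 cores occur in 1.36%. Neither an AP-1 site (TGANTCA, in 7.81% of windows) nor a CArG box, the site of the serum response factor SRF (in 1.63%), was found in the 4 windows; both of these motifs read the same on either strand, and a CArG box can share its outer letters with a TEAD core. A match is a description of letters and shows no binding.

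The arrays differed in ways that touch these genes. The 3' to 5' signal ratio of Actb, which is higher when transcripts are truncated, was 1.03 on the feeder array and 1.01 on the unsorted array, against 1.87 to 2.37 on the second-set arrays and 6.83 and 13.5 on the first-set arrays. The probe set for the cre transcript, a control commonly added at hybridisation, read 14794 and 13550 on the feeder and unsorted arrays and 45164 to 111744 on the sorted arrays, and the amounts added are not stated in the labels used here. The highest of 27 probe sets for bacterial transcripts, taken as background, read 60.8 on the feeder array, 170 on the unsorted array and 50.8 to 170 on the sorted arrays. Fibroblast and mesenchymal genes summed to 74030 on the feeder array and 67570 on the unsorted array, to 35630 to 92510 on the second-set arrays and to 10390 and 5433 on the first-set arrays. Of 10 endothelial markers, 5 exceeded a signal of 100 on the feeder array, 8 on the unsorted array and 3 to 8 on a sorted array, and Tek and Tie1 were under 64 on all 7 arrays. A signal of 100 is below the background control of the unsorted array and of Sca1- replicate 1, so passing it there does not show expression. Of the 8 on the unsorted array, Pecam1 (117) and Cldn5 (109) were below background. Of 10 macrophage markers, 6 to 8 exceeded 100 on each array. Their summed signal was 49880 on the feeder array and 53040 on the unsorted array. It was 64760 to 72410 on the second-set arrays, and 108100 and 121000 on the first-set arrays. The feeder array lies alone in a separately deposited table under another array platform, so each comparison with it also crosses platforms, and in bulk RNA fewer expressing cells and less RNA per cell cannot be told apart.

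Of the 2 matricellular genes, Ccn1 had a signal of 3126 on the feeder array and 732 on the unsorted array. It read 1468 and 37.4 on Sca1+ replicates 2 and 1, and 941, 778 and 28.0 on Sca1- replicates 2, 3 and 1. The feeder array was highest, the 3 second-set arrays and the unsorted array lay together below it, and both first-set arrays were under the background control. A second Ccn1 probe set had the feeder array highest as well, with 1952 against 414 on the unsorted array, 272 to 907 on the second-set arrays and 12.2 and 54.0 on the first-set arrays. Because the name of the brighter probe set ends in x, its probes may also bind related transcripts.

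For Ccn2 the arrays stood in the same order of groups. It read 7342 on the feeder array and 1378 on the unsorted array. The sorted arrays read 3321 and 105 for Sca1+ replicates 2 and 1, and 2195, 2320 and 4.40 for Sca1- replicates 2, 3 and 1. The unsorted array lay below all 3 second-set arrays and above both first-set arrays. The 2 first-set arrays differed, with Sca1+ replicate 1 above its background control of 55.2 and Sca1- replicate 1 far below its own of 170.

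Ankrd1 had a signal of 1209 on the feeder array and 148 on the unsorted array, where it did not exceed the background control. Sca1+ replicates 2 and 1 read 376 and 29.6, and Sca1- replicates 2, 3 and 1 read 216, 341 and 9.99. Its other probe set placed the unsorted array higher, with 988 on the feeder array, 330 on the unsorted array, 155 to 285 on the second-set arrays and 7.20 and 8.60 on the first-set arrays. Both probe sets put the feeder array first and the first-set arrays last, and they disagree on whether the unsorted array lies below or above the second-set arrays.

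Amotl2, the YAP-binding angiomotin, was the one member above the background control on all 7 arrays. Its signal was 1137 on the feeder array and 523 on the unsorted array. Sca1+ replicates 2 and 1 read 360 and 109, and Sca1- replicates 2, 3 and 1 read 257, 208 and 283. The feeder and unsorted arrays stood above every sorted array, and the first-set and second-set arrays overlapped because Sca1- replicate 1 lay among the second-set values.

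Axl, the receptor, differed from the other 4 in that the feeder and unsorted arrays were alike. It read 3948 on the feeder array and 3522 on the unsorted array. Sca1+ replicates 2 and 1 had 1742 and 331, and Sca1- replicates 2, 3 and 1 had 816, 819 and 109. The sorted arrays all lay below the feeder and unsorted values, and the first-set arrays lay below the second-set arrays. A second Axl probe set was below background on all 7 arrays, with at most 81.4, and is not used further.

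**Figure D1:**
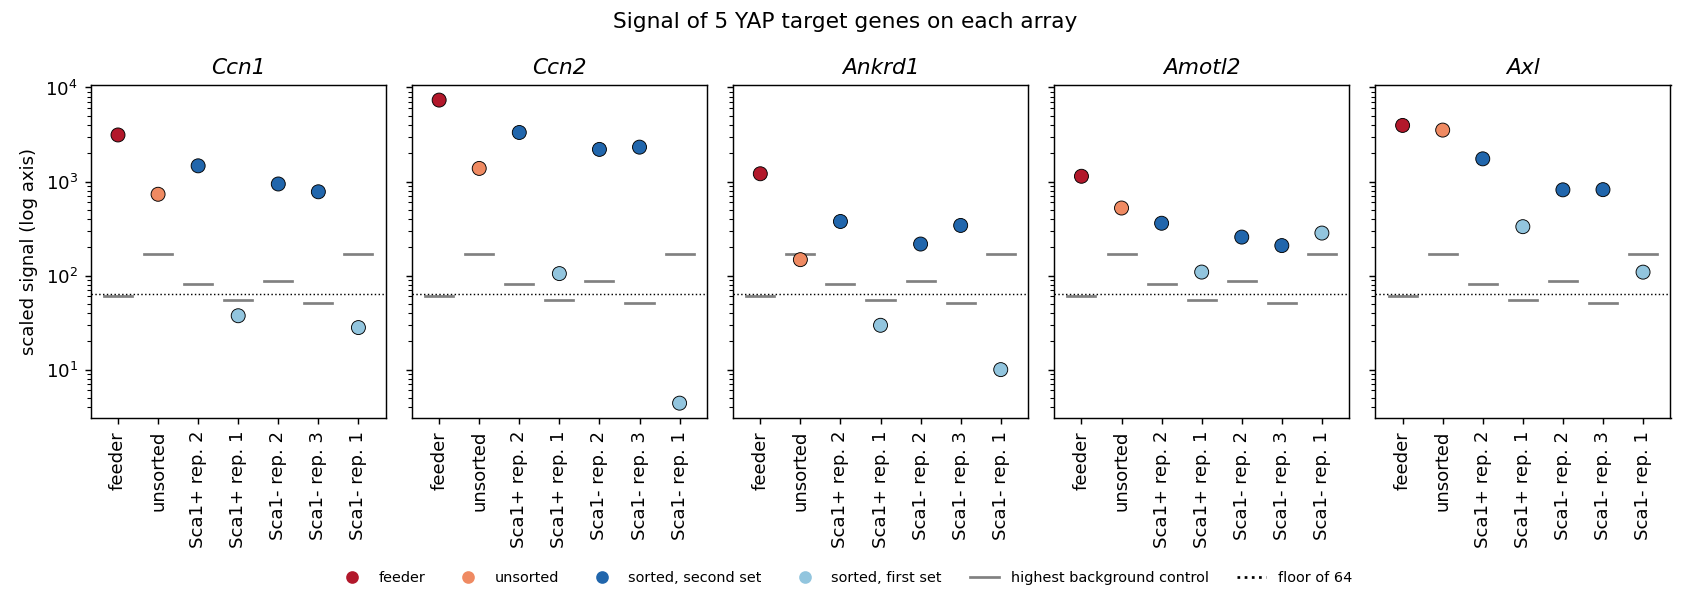
Scaled signal (log axis) of the 5 genes on the 7 arrays, 1 point per array, with each array's highest background control as a grey line and the floor of 64 dotted. The feeder point is the highest in each panel, at 3126 for Ccn1, 7342 for Ccn2, 1209 for Ankrd1, 1137 for Amotl2 and 3948 for Axl, and the first-set sorted points are the lowest except in Amotl2.

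Set against the unsorted progenitors, the feeder array stood 4.27-fold higher for Ccn1 (log2 difference 2.10) and 5.33-fold higher for Ccn2 (2.41). For Ankrd1 the unsorted array was not above background, so the feeder signal was at least 7.1-fold higher, and the other Ankrd1 probe set, measured above background on both arrays, gave 2.99-fold (1.58). Amotl2 stood 2.18-fold higher (1.12), and Axl only 1.12-fold (0.17). Of the 5 members 4 passed 2-fold upward, against 4.08% of 9751 genes, and 15.9% of genes passed it downward; the members were listed for this contrast, so nothing is read from their share. The direction held under every scaling, floor, pseudocount and probe set rule tried for Ccn1 (2.05 to 2.45), Ccn2 (2.39 to 2.77) and Amotl2 (1.08 to 1.48). It also held for Ankrd1 (1.88 to 3.39, with the unsorted array below background in the main setting). Axl ranged from 0.016 to 0.52 under the scalings, floors and pseudocount. It was -0.09 with the mean of probe sets, which takes in its probe set that was below background on all arrays. The median of all genes was -0.13, and -0.03 after quantile normalization and 0.28 after median scaling. Of all genes past 2-fold, 20.5% were higher on the feeder array, against 46.3% and 56.1% under those scalings.

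Other gene lists put these differences beside their surroundings. Fibroblast and mesenchymal genes had a median difference of 0.04 between the feeder and unsorted arrays, with 0 of 12 at least 2-fold higher and 1 lower. The collagen genes Col1a1 (0.30), Col1a2 (0.16) and Col3a1 (-0.07) and the fibronectin gene Fn1 (0.32) were all within 2-fold. Actin cytoskeleton and SRF target genes, a set that also answers to mechanical tension, had a median of 0.93, with 9 of 20 at least 2-fold higher and 0 lower. Among these 9, Lima1 and Lmod1 read 42.8 and 31.2 on the unsorted array, below the background control. Of the 4 brightest, the smooth muscle actin gene Acta2 differed by 0.94, the tropomyosin gene Tpm4 by 0.67, the calponin gene Cnn2 by 0.40 and the myosin heavy chain gene Myh9 by 0.06. Stellate cell, pericyte and smooth muscle markers had a median of 0.94, with 4 of 9 at least 2-fold higher, among them Tagln (1.88) and Myl9 (1.26). Acta2, Tagln, Cnn1 and Myl9 are on both lists, so the 2 medians are not separate observations. Of the genes on the stellate list alone, Rgs5 (-0.28), Cspg4 (-0.22), the receptor gene Pdgfrb (0.05) and Myh11 (0.79) were within 2-fold. Des passed 2-fold upward, but it read 79.2 on the unsorted array, below the background control. The summed signal of the stellate list was 29460 on the feeder array and 12100 on the unsorted array. The part of stellate, pericyte and smooth muscle cells in the members' values was not tested.

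Of a further list of YAP target genes, 19 were measured. Of these, 18 exceeded a signal of 100 on at least 1 of the 2 arrays. On the feeder array 2 of them passed 2-fold upward, 1 passed it downward, and the median was 0.26. Of the 2 upward, Edn1 read 73.6 on the unsorted array, below the background control. The 1 downward, Nt5e, was below background on both arrays. Myof, which encodes a membrane repair protein, had 1830 on the feeder array and 856 on the unsorted array (1.10). Thbs1, encoding thrombospondin, had 6036 on the feeder array and 4034 on the unsorted array (0.58). Ccdc80 had 3875 on the feeder and 3417 on the unsorted array (0.18), and Asap1 had 786 on the feeder and 945 on the unsorted array (-0.27). Endothelial markers had a median of -0.84, hepatoblast markers one of -1.08 and macrophage markers one of -0.06.

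The genes of the pathway itself were closer to level. Of 20 YAP and Hippo genes above 100 on either array, 0 passed 2-fold upward on the feeder array, 1 passed it downward and the median was -0.05. Yap1 had a signal of 1697 on the feeder array, 1038 on the unsorted array, 427 to 657 on the second-set arrays and 121 and 226 on the first-set arrays. Wwtr1, which encodes TAZ, had 771 on the feeder array, 653 on the unsorted array, 142 to 675 on the second-set arrays and 57.4 and 18.6 on the first-set arrays. Both were picked out after their values were seen. The 4 brightest pathway genes were Mob1a (0.17) and Sav1 (-0.28), cofactors of the Hippo kinases, and the upstream kinases Taok1 (-0.09) and Map4k4 (0.79).

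Relatives and partners of the members were mostly within 2-fold between the feeder and unsorted arrays, with 0 of 7 past it upward and 1 past it downward. That 1 gene, Ankrd2, was below background on both arrays. Ccn4, another matricellular gene of the CCN family, had 1116 on the feeder array and 742 on the unsorted array (0.59). The Axl ligand gene Gas6 had 1836 on the feeder and 1383 on the unsorted array (0.41), and Pros1, which encodes the related ligand protein S, had 693 on the feeder and 628 on the unsorted array (0.14). Mertk, a receptor of the same family as Axl and a macrophage gene, had 967 on the feeder and 1409 on the unsorted array (-0.54). Immediate early genes, of which Ccn1 is often counted as 1, had a median of 0.38 with 2 of 20 at least 2-fold higher. Of these 2, Fosl1 read 68.4 on the unsorted array, below the background control. Fos (0.04), Egr1 (0.21), Zfp36 (0.26) and Dusp1 (0.59) were within 2-fold.

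**Figure D2:**
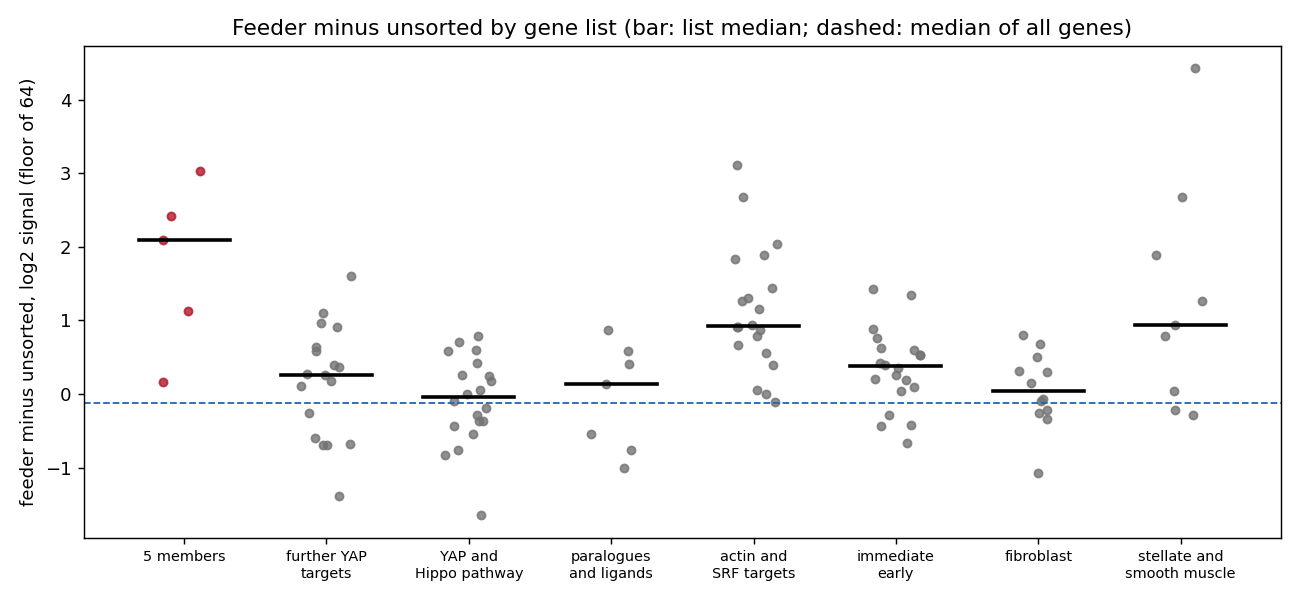
Difference of log2 signal between the feeder and the unsorted array (vertical axis, floor of 64) for each gene above 100 on either array, by list; black bars are list medians and the dashed line is the median of all genes at -0.13. The members' median is 2.10, the actin and SRF median 0.93 and the fibroblast median 0.04.

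Against the sorted progenitors the feeder array stood higher for all 5 genes, and the size depended on the sample set. Against the mean of the 3 second-set arrays the fold was 3.05 for Ccn1, 2.86 for Ccn2, 3.99 for Ankrd1, 4.24 for Amotl2 and 3.75 for Axl. The 5 genes thus lay within a narrow range here, including Axl. All 5 passed 2-fold upward, against 8.77% of 9150 genes, with 5.95% of genes past it downward. Against the mean of the 2 first-set arrays the fold was at least 32.3 for Ccn1 and at least 12.5 for Ankrd1, both below background on those arrays, and 6.47 for Amotl2. With 1 of the 2 first-set arrays below background, Ccn2 gave 89.6-fold and Axl 20.8-fold at the floor of 64, or 55.0 and 16.6 with the background control in place of lower signals. Of 9628 genes, 21.5% passed 2-fold upward in that comparison and 14.8% downward. The feeder array was above all 6 others for 5 of 5 members and for 14.3% of 10565 genes. These comparisons share the feeder array with the one before.

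**Figure D3:**
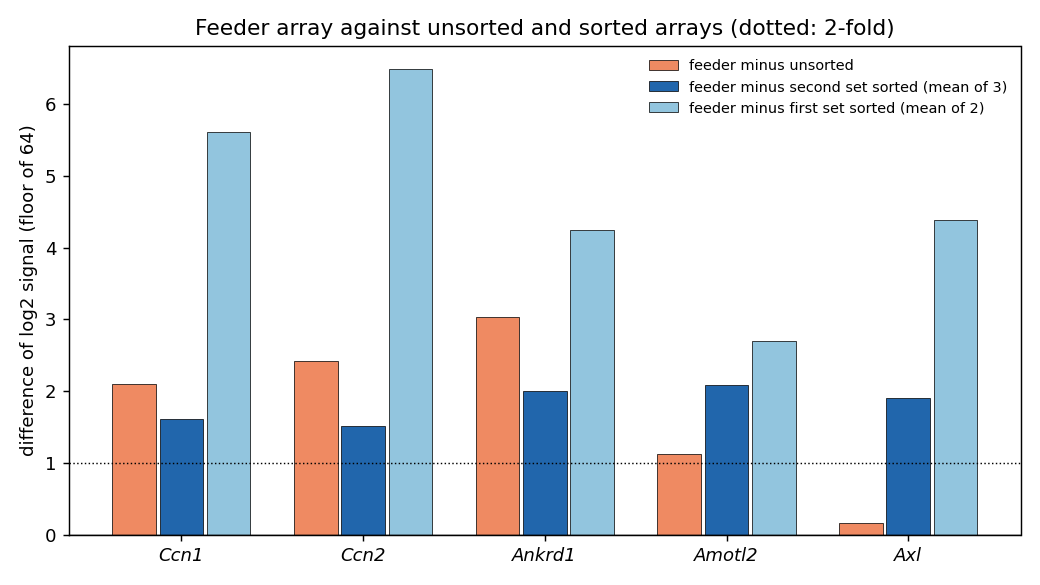
Difference of log2 signal (vertical axis, floor of 64) between the feeder array and the unsorted array, the mean of the 3 second-set sorted arrays and the mean of the 2 first-set sorted arrays, for the 5 genes; the dotted line is 2-fold, and the first-set bars of Ccn1, Ankrd1 and, for 1 of the 2 arrays, Ccn2 rest on the floor. Signals below background also enter the first-set bar of Axl and the unsorted bar of Ankrd1. Axl differs by 0.17 against the unsorted array and by 1.91 against the second set.

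The fibroblast genes also stood higher on the feeder array than on the second-set arrays, with a median of 1.26 and 8 of 12 at least 2-fold higher, beside a median of 1.91 for the members. Stellate and smooth muscle markers had a median of 1.83 and actin and SRF genes one of 1.06. Yap1 differed by 1.70 and Wwtr1 by 1.60, and immediate early genes by a median of 0.16. The median of all genes was 0.03.

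The unsorted array was set against the sorted arrays next, within the same table and without a test, the unsorted group being 1 array. Axl was 3.35-fold and Amotl2 1.95-fold above the second-set mean, and both stood above all 5 sorted arrays, as did 35.4% of 10510 genes. Ccn1 and Ccn2 stood below the second-set mean, at 0.715 and 0.537 of it. Ankrd1 was below background on the unsorted array, so no fold is given, and its second probe set placed that array above the second set. Axl was thus the 1 member past 2-fold upward, against 20.2% of 10043 genes, and 6.52% of genes passed it downward. Against the first-set mean Amotl2 differed by 1.57, and Ccn2 and Axl by 4.07 and 4.22 with 1 of the 2 first-set arrays below background. Ccn1 was below background on both first-set arrays, and Ankrd1 on these and on the unsorted array. Fibroblast genes had a median of 1.17 above the second-set arrays, so Ccn1 and Ccn2 differed in sign from the fibroblast median there. Of all genes past 2-fold against all 5 sorted arrays, 75.2% were higher on the unsorted array, and 46.1% and 20.1% with quantile normalization and median scaling.

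Among the sorted arrays, Axl was higher in the second set than in the first by limma with group as a term. Ccn2 passed as well, but of the first-set arrays only Sca1+ replicate 1 exceeded the signal minimum of 100, at 105. The filter asked for 2 sorted arrays, so the entry of Ccn2 to the test also rested on the set in which it is high. Ccn2 had 3321, 2195 and 2320 on the second-set arrays against 105 and 4.40 on the first-set arrays, and its fitted log2 difference was 5.07 ± 0.24 (SE, adjusted p = 0.00123). Because 1 of the first-set arrays was below background, that size depends on the floor. Between the plain set means, without the group term, the fold was 19.2 with the background control standing in. Axl had a mean log2 signal of 10.04 ± 0.63 in the second set and 7.57 ± 1.14 in the first (SD, n = 3 and 2). Its fitted difference was 2.69 ± 0.26 (SE, adjusted p = 0.00344). The plain set means of Axl differed 4.44-fold with the control standing in. Amotl2 did not pass, with 8.07 ± 0.40 in the second set and 7.46 ± 0.97 in the first (SD, n = 3 and 2). Its fitted difference was 0.57 ± 0.50 (SE, adjusted p = 0.445).

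Ccn1 and Ankrd1 exceeded the signal minimum of 100 on the second-set arrays alone, so they entered the test through the set in which they are high, and their differences are given as a description. Ccn1 read 1468, 941 and 778 on the second-set arrays, against 37.4 and 28.0 on the first-set arrays, at least 10.6-fold higher. Ankrd1 read 376, 216 and 341 on the second-set arrays, against 29.6 and 9.99 on the first-set arrays, at least 3.13-fold higher. With no filter on low signals the adjusted p was 0.0315 for Ccn2, 0.0503 for Axl, 0.0561 for Ccn1 and 0.101 for Ankrd1, so Ccn2 alone of the 5 then passed. With the filter all 5 were among 8591 genes tested, of which 11.8% passed as higher and 7.46% as lower in the second set, 1012 and 641 genes; with median scaling the split was 516 and 715. Of these 8591 genes, 445 had entered through the second set alone, and of the other 8146, 10.6% passed as higher. The other 8146 include genes that, like Ccn2, exceeded the minimum on only 1 first-set array. All second-set arrays were above both first-set arrays for each member but Amotl2 and for 26.5% of genes. Without Sca1- replicate 1, the set term rested on Sca1+ replicate 2 against Sca1+ replicate 1 alone. Amotl2 then differed by 1.72, with signals of 360 and 109 on these arrays.

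The set difference ran beside those of stromal and immediate early genes and of RNA quality. In the counts that follow, a first-set signal above the minimum means one on at least 1 first-set array. Genes with only 1 such array, like Ccn2, also needed the second set to enter the test. Among them was the immediate early gene Myc, at 110 and 28.8 on the first-set arrays. Of 12 fibroblast genes tested, 7, among them Col1a1, had entered through the second set alone; of the other 5, 3 passed as higher, including Col1a2 (3.70, adjusted p = 0.00792) and Col3a1 (4.66, adjusted p = 0.0019). Of 7 stellate and smooth muscle genes 4 had entered that way, and 1 of the other 3 passed, Tagln (3.75, adjusted p = 0.00376). Of 6 hepatoblast genes, 3 had entered that way and 1 of the other 3 passed, Dlk1 (2.62, adjusted p = 0.0167). Dlk1 was picked out after its value was seen, and it read only 59.0 and 100 on the first-set arrays. The other 3 had a median of -0.09, with Alb at -0.09 and Apoa2 at -0.27. Of 18 immediate early genes with a first-set signal above the minimum, 9 passed as higher, including Egr1 (1.45), Zfp36 (1.30) and Dusp1 (1.44). The brightest, Fos (0.25), did not pass. Of 17 such actin and SRF genes, 5 passed as higher and 0 as lower. The 4 brightest of that list, Acta2 (0.49), Tpm4 (-0.61), Myh9 (0.45) and Cnn2 (-1.24), did not pass. None of 5 such endothelial genes passed by limma, and 2 of all 7 tested had an unadjusted p under 0.05. Of 7 such macrophage genes, 1 passed as higher and 1 as lower.

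Among the genes of the pathway, 15 exceeded the minimum on at least 1 first-set array, and 3 passed as higher and 1 as lower in the second set. Yap1 was higher (1.64, adjusted p = 0.0340) and the kinase gene Lats2, which is itself a YAP target, was lower (-1.25, adjusted p = 0.0322); both were picked out after their values were seen. Of 10 such further YAP targets, 4 passed as higher and 1 as lower. The lower one was Lats2 again, which is on both lists and is not a separate observation. Tgfb1i1, among the 4 higher, is also on the actin and SRF list. The Axl ligand gene Gas6 passed as higher (2.54, adjusted p = 0.0141). Wwtr1 and Ccn4 were under 100 on both first-set arrays. The median of all genes was 0.10, and the part of stromal, hepatoblast and macrophage content and of the 3' to 5' ratio in the members' difference was not tested.

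**Figure D4:**
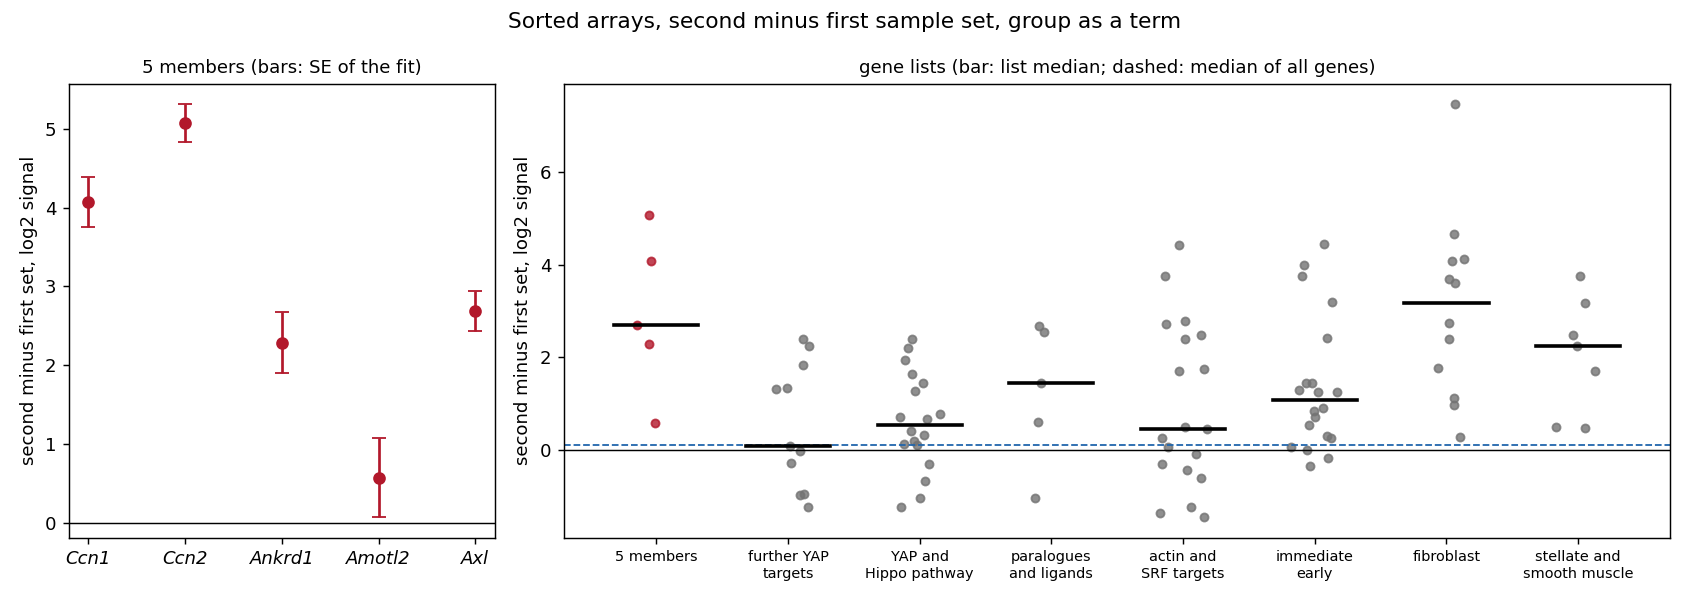
Second minus first set difference of log2 signal (vertical axes) among the 5 sorted arrays from the fit with group as a term; left, the 5 members with the SE of the fit, right, the tested genes of each list with list medians as bars and the median of all genes dashed at 0.10. The points of Ccn1, Ankrd1 and, for 1 first-set array, Ccn2 rest on the floor; Axl stands at 2.69 and Amotl2 at 0.57, and the list panels include genes that entered the test through the second set alone.

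No member differed between the Sca1 fractions by the test. With group as the only term in limma, Ccn1 averaged a log2 signal of 8.26 ± 3.20 in Sca1+ and 8.49 ± 2.16 in Sca1- (SD, n = 2 and 3), a difference of -0.23 ± 1.58 (SE). Ccn2 differed by -0.22 ± 1.93, Ankrd1 by -0.11 ± 0.96, Amotl2 by -0.32 ± 0.58 and Axl by 0.86 ± 1.07, and every adjusted p was 1. Over 8591 genes 0 passed in limma (0%), and 95 higher (1.11%) and 197 lower (2.29%) had an unadjusted p under 0.05, none of them a member.

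With the sample set as a block, Axl differed by 1.31 ± 0.26 (SE) with an adjusted p of 0.107, which did not pass. Axl had 1742 on Sca1+ replicate 2 against 816 and 819 on the second-set Sca1- arrays, and 331 on Sca1+ replicate 1 against 109 on Sca1- replicate 1. The Sca1+ array was therefore the higher within each set, by 1.09 in the second and 1.61 in the first. On Sca1- replicate 1, Axl was below the background control of 170. The size of the first-set difference, and in part that of the blocked one, thus rests on a signal below background. Ccn2 differed by 0.62 ± 0.24 (adjusted p = 0.307), Ccn1 by 0.45 ± 0.32 (0.507), Ankrd1 by 0.27 ± 0.38 (0.752) and Amotl2 by -0.23 ± 0.50 (0.846). In that fit 85 genes (0.989%) passed, all lower in Sca1+, and an unadjusted p under 0.05 was found for 7.67% of genes as higher and 7.82% as lower, with Axl (0.00188) and Ccn2 (0.0371) among those higher. Within the second set the Sca1+ array was above both Sca1- arrays for 5 of 5 members, by 0.47 to 1.09, and for 45.9% of 8862 genes. Fibroblast genes summed to 92510 on that Sca1+ array against 38210 and 35630 on the Sca1- arrays. The median difference there was 1.47 for fibroblast, 1.24 for endothelial, 0.92 for hepatoblast and 0.92 for stellate and smooth muscle markers, and 0.08 for all genes, and the part of these cells in the members' values was not tested.

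The 5 genes did not share a single pattern. Likeness was measured over the 6 arrays of the larger table, as the root mean square difference of log2 signal after each gene was centred on its own mean. Ccn1 and Ccn2 were the most alike pair at 0.50, Ccn1 and Ankrd1 followed at 0.96, and Ccn2 and Amotl2 were the least alike at 2.05. Over all tested genes, the nearest to Ccn1 were the smooth muscle gene Tagln (0.24), the immediate early gene Fosb (0.26) and the integrin gene Itga5 (0.28). Nearest to Ccn2 were the immediate early gene Junb (0.32), the aminopeptidase gene Anpep (0.42) and the splicing factor gene Srrm2 (0.44). Ankrd1 lay nearest to Sh3bp2 (0.18), the growth factor receptor gene Fgfr1 (0.26) and the polycomb gene Ring1 (0.26). Ccn1 and Ankrd1 stood at the floor on both first-set arrays and Ccn2 on 1, so their distances rest in part on the floor. The unsorted value of Ankrd1 was also below background.

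Amotl2 had as neighbours Sh3glb2 (0.14), Meis3 (0.14) and Tmem150a (0.16), and Axl had the small heat shock protein gene Hspb1 (0.31), Olfml3 (0.35) and Scpep1 (0.35). The feeder array was not used in the measure, and some neighbours lay near their member there while others did not. The feeder minus unsorted difference was 1.88 for Tagln and 1.55 for Itga5, beside 2.10 for Ccn1, but 0.54 for Fosb. It was -0.29 for Junb, 0.87 for Anpep and 0.52 for Srrm2, beside 2.41 for Ccn2. For Sh3bp2 and Fgfr1 it was 0.39 and 1.03, beside at least 2.83 for Ankrd1 and 1.58 by its other probe set, and Ring1 was not above background on the unsorted array. The neighbours of Amotl2 had -0.33, -0.45 and -0.56, beside 1.12 for Amotl2 itself. The 6 arrays share the split by sample set, and its part in this likeness was not tested.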

How the data were processed

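The deposited values are signal intensities per probe set on a linear scale, 1 colour, which the authors had scaled to a trimmed mean near 250.1 on every array, as found from the values. The submitters' processing notes name GCOS for the second-set arrays; none was named for the others. Signals were rescaled so that every array had a trimmed mean of 500 (2% off each end), given a floor of 64 and put on the log2 scale. Of 22690 probe sets, 64 were controls, and 20380 with 1 gene in the annotation were used (691 had several and 1555 none); 0 symbols needed updating against GRCm38.p6. Each gene took its brightest probe set by mean log2 signal in the table of 6 arrays. The tests covered 8591 of 12393 genes, those past a signal of 100 on 2 or more sorted arrays.

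Tests used limma 3.58.1 in R 4.3.3 (eBayes with an intensity trend, Benjamini-Hochberg adjustment over all genes tested at 0.05, residual degrees of freedom 3 with group only and 2 with the sample set). A run on simulated data checked the code only, because its noise was no larger than the median spread of genes within the Sca1 fractions. The sample sets were inferred from sample numbers in the titles. Nothing says which samples came from separate animals or cultures, so p-values rest only on the spread of these arrays, possibly a technical one; 0 pairs of arrays held identical values. The number of arrays limits the precision. The members, lists and tests were chosen with earlier results of these data known. From each list the 4 genes of highest mean log2 signal were to be named, and per member the 3 nearest genes. In comparisons with 1 array in a group, genes above 100 on at least 1 array were counted as past 2-fold or not. A gene below the highest background control on every array of the lower group was given a bound, the control's signal standing in for lower signals. Alternatives were quantile normalization, median scaling, other floors, a pseudocount, the mean of probe sets, other filters, no trend, blocks, only the compared groups and leaving out arrays. Figures were drawn with matplotlib 3.10.9.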

Additional observations from a re-analysis of the deposited data

Results flagged for a closer look

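The Sca1+ minus Sca1- difference of Amotl2 had opposite signs in the 2 sample sets. It was -1.38 in the first set, where Sca1+ replicate 1 read 109 and Sca1- replicate 1 read 283, and 0.64 in the second set, where Sca1+ replicate 2 read 360 and the Sca1- arrays read 257 and 208. The difference between the sets was not tested.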

How the results depend on the processing

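The feeder comparisons kept their direction for Ccn1, Ccn2, Ankrd1 and Amotl2 under the scalings, floors, pseudocount and probe set rules run; without each sorted array in turn the members' median against the sorted arrays was 2.56 to 3.33. Shifts were judged against the SD within the Sca1 fractions, which is wide because the sets differ. With only the second-set arrays as reference, chosen after seeing the data, the unsorted minus sorted median turned to -0.49, with Ccn1 at -0.49 and Ccn2 at -0.90; without each sorted array it was 0.52 to 1.65. Between the Sca1 fractions, the count of 0 genes in limma became 1 with no filter, 85 with the sample set as a block, 84 with that block and a floor of 16, and 80 with the replicate number as a replicate block. With the sample set block and either the highest floor or no filter it was 0, so the 85 calls did not hold there; these blocked alternatives were chosen after seeing the data. No member passed with no filter, the sample set block or the replicate block, and the count stayed 0 without each array in turn. Member signs turned there, none past the test: Ccn2 was 0.016 with quantile normalization, 0.45 with a floor of 16 and 0.24 with a pseudocount of 32; Ankrd1 was 0.053 with the highest floor and 0.011 with the pseudocount; Ccn1 was 0.034 with the mean of probe sets. The sample set as a block gave 0.45 for Ccn1, 0.62 for Ccn2 and 0.27 for Ankrd1, and the replicate block 0.32, 0.66 and 0.40. Without single arrays the ranges were -2.49 to 2.03 for Ccn1, -2.71 to 2.27 for Ccn2, -1.39 to 1.16 for Ankrd1, -1.18 to 0.54 for Amotl2 and -0.33 to 2.06 for Axl. Deviations of same-numbered arrays correlated at 0.57 and 0.48 across genes, and those of Sca1+ replicate 2 and Sca1- replicate 3 at 0.52. The correlations were positive within each sample set and negative between sets. With 2 same-numbered pairs the numbers are not taken as pairing. For the sample sets, 1653 genes passed, against 542 with the highest floor, 31 with no filter and 684 to 3450 without single arrays (3196 without Sca1+ replicate 1, 3450 without Sca1+ replicate 2, 684 without Sca1- replicate 3); Amotl2 then ranged from -0.29, without either Sca1+ array, to 1.72. The causes were not tested. Signals near the background controls limit what can be said of Ccn1, Ccn2 and Ankrd1 on the first-set arrays.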
